A study of Mus musculus with 5 samples.

Results

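The genes described here are the nuclear-encoded subunits of the respiratory chain, read as RNA on membrane-coated nanoparticles. They were chosen by name: protein-coding genes outside the mitochondrial genome whose symbol begins with Ndufa, Ndufb, Ndufc, Ndufs, Ndufv, Uqcr, Atp5, Cox4, Cox5, Cox6, Cox7 or Cox8, together with Sdha, Sdhb, Sdhc, Sdhd and Cyc1, without assembly factors (Ndufaf) and pseudogenes. The rule used no count and found 87 of the 55385 genes in the tables. Of these, 36 belong to complex I, 4 to complex II, 9 to complex III, 20 to complex IV and 17 to complex V, and Atp5s, which carries the family name but is not a subunit, was set apart.

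Complexes I to IV sit in the inner mitochondrial membrane and pass electrons from NADH and succinate to oxygen, all but complex II pump protons, and complex V, the ATP synthase, lets the protons back to make ATP. Most subunits are encoded in the nucleus, translated in the cytosol or at the mitochondrial surface and imported, while the mitochondrial genome encodes a few core subunits. Their mRNAs are abundant in most cells, and several occur beside near-identical processed pseudogenes.

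All libraries came from EL4, an established mouse T-lymphoma cell line grown in suspension, with no genetic change or drug that separates the groups. Cells were broken in hypotonic buffer, and spins meant to remove organelles, mitochondria among them, left a membrane pellet that was wrapped around polymer (PLGA) cores. In variation A (libraries A1, A2 and A3) the RNA was extracted from the washed particles with phenol-chloroform before both adaptors were ligated, which takes RNA from both sides of the membrane. In variation B (libraries B1 and B2) the 3′ adaptor was ligated directly on intact particles, so that outward-facing RNA is favoured. The comparison of B with A therefore asks which transcripts differ between the 2 preparations. The variations also differ in the cells used per library, the purification and the depth. The methods describe an end repair of RNA fragments before ligation for the extracted RNA, but none before the direct ligation of variation B. For the direct ligation they also name a raised RNA input and number of PCR cycles. These differences cannot be told apart from the side of the membrane. Nothing in the sources says that the libraries of a variation came from separate cultures, so the p-values measure the spread between these libraries.

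Depth differed widely. Genes collected 2301017, 4502174 and 1187117 counts in libraries A1 to A3, and 21862003 and 22980172 in B1 and B2. Library A1 stood apart from A2 and A3. Nuclear protein-coding genes held 39.3% of the counts in A1 but 22.6% and 22.0% in the other A libraries, and the B libraries had 63.5% and 64.4%. Small nuclear RNA genes held 0.847% in A1, 12.1% in A2 and 13.1% in A3, and 1.18% and 0.632% in the B libraries. Over the 75 respiratory chain genes that passed the filter on low counts, the log2 levels of A1 correlated with those of A2 at a Pearson's r of 0.73 and with those of B2 at 0.85, whereas A2 and A3 correlated at 0.93 and B1 and B2 at 0.97 (across genes, which are not independent replicates). Results are therefore also given without A1. Levels are given as CPM, counts scaled to a common library size, with that size corrected by TMM factors, called normalized CPM. In this unit the 11 T-lineage markers checked summed to between 997 and 1291 in every library and none was at 0 in all of them, while the B-lineage, macrophage, fibroblast, epithelial and muscle lists each summed to at most 5.06. In the order A1, A2, A3, B1 and B2, 3 counts correspond to 1.49, 1.17, 4.44, 0.0732 and 0.0710 normalized CPM. Such floors, and the intervals below, cover counting error only.

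The respiratory chain genes as a group took between 0.732% and 0.920% of the messenger counts in each library, while single subunits moved in both directions. They held 6625, 9347 and 2236 counts in libraries A1 to A3 and 111750 and 117624 in the B libraries. As a share of the counts on nuclear protein-coding genes this was 0.732% (95% Wilson interval 0.715 to 0.750), 0.920% (0.901 to 0.938) and 0.858% (0.823 to 0.894) for libraries A1 to A3. The B libraries had 0.806% (0.801 to 0.810) and 0.795% (0.791 to 0.800). The A libraries averaged 0.837% ± 0.0954 (SD, n = 3) and the B libraries 0.800% ± 0.00726 (SD, n = 2), so both B libraries lay within the range of the A libraries. That range rests on A1. Without it both B libraries lay below both other A libraries, and the B mean was 0.901 times the A mean. As a share of all counts on genes, the denominator of which holds ribosomal RNA, the B mean was 2.24 times the A mean. Complex V, led by Atp5b and Atp5a1, held 40.5%, 41.9% and 40.2% of the group's counts in the A libraries, and 40.9% and 41.8% in the B libraries. Complex II took 12.9%, 13.1% and 14.4% in variation A and 10.3% and 9.80% in variation B, with no overlap. Complex IV took 12.7%, 12.7% and 11.2% in variation A and 13.6% and 14.7% in variation B, also with no overlap. Both separations lean in part on single genes and do not describe every member. Cox4i1, not called, held 111 of 842, 326 of 1191 and 48 of 250 complex IV counts in libraries A1 to A3. In B1 and B2 it held 5190 of 15196 and 6201 of 17325. Sdhd held 168 of 857, 415 of 1223 and 120 of 321 complex II counts in libraries A1 to A3. In B1 and B2 it held 1805 of 11500 and 2282 of 11532.

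**Figure D1:**
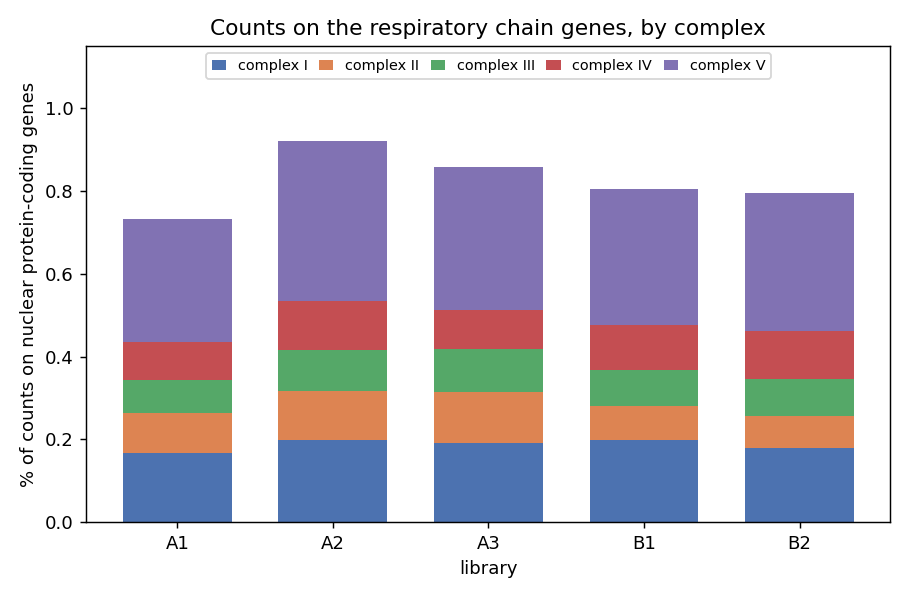
Counts on the respiratory chain genes as a percentage of the counts on nuclear protein-coding genes (y axis, from 0) in each library (x axis), stacked by complex. From left to right the stacks reach 0.732%, 0.920%, 0.858%, 0.806% and 0.795%, and complex V is the tallest block in every library.

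Detection varied between libraries. CPM on the library total was above 2 for 75, 68 and 65 of the genes in libraries A1 to A3 and for 76 and 75 in the B libraries, and 63 passed in all 5 libraries. In all, 43 had at least 10 counts in every library, 18 were at 0 in A3, the shallowest library, and 4 were at 0 everywhere. The genes outside the test numbered 12. Most of these were isoforms restricted to other tissues. Cox6a2, Cox7a1 and Cox8b are the heart and skeletal muscle forms of their subunits, Cox4i2 is a form known from lung, Cox6b2, Cox7b2 and Cox8c are known from testis, and Ndufa4l2 is induced by low oxygen. Cox7b2, Cox8b and Cox8c had no count in any library. Cox6a2 had 1, 3 and 0 counts in variation A and 50 and 17 in variation B, and Cox7a1 had 0, 1 and 0 counts in variation A and 4 and 40 in variation B. Cox4i2, Cox6b2 and Ndufa4l2 had at most 4 counts in any library. Ndufs5, Ndufb4, Atp5s and a second locus named Atp5o, the latter at 0 throughout, were also too low to test. Ndufs5 and Ndufb4 encode ordinary complex I subunits, and 80.8% and 100% of the 30-base words of their coding sequences also occur in transcripts of other genes. The counting dropped reads with several alignments, so a low count for such a gene cannot be told apart from reads lost to its copies.

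Of the 75 genes tested with edgeR, 4 were called higher in variation B (5.33%) and 13 lower (17.3%), at a Benjamini-Hochberg adjusted p under 0.05 over 10287 genes and a fold change above 2. Over all genes tested 11.0% were called higher and 12.4% lower. The genes called higher were Atp5g3, Ndufa2, Ndufab1 and Atp5c1. Those called lower were Atp5g1, Uqcr10, Ndufs3, Cyc1, Atp5g2, Ndufv3, Cox8a, Uqcrfs1, Sdhd, Ndufa13, Atp5j2, Atp5h and Cox6a1. The median log2 fold change was -0.51 over the 75 genes, 0.05 over all genes tested and 0.04 over nuclear protein-coding genes. Both B libraries lay above all A libraries for 17 genes (22.7%, against 31.2% of all genes) and below them for 27 (36.0%, against 26.7%). Without A1, 17 were called higher and 17 lower of 76 tested (22.4% each, against 2526 higher, or 20.8%, and 1821 lower of all 12127 genes in that fit), and the median was -0.17 beside 0.16 for all genes. All 4 higher calls and 12 of the 13 lower calls were kept then, the exception being Atp5h. With A2 or with A3 left out 1 was higher and 4 were lower of 77, where 3.46% and 3.57% of all genes were called higher and 3.64% and 3.86% lower. Leaving out a B library leaves variation B with 1 library, whose spread is assumed to be that of the A libraries. With B1 left out 1 was higher and 0 lower (1.92% and 2.30% of all genes), and with B2 left out edgeR called 0 in either direction (1.55% and 1.32% of all genes). At an unadjusted p under 0.05 these fits gave 5 higher and 11 lower, and 3 higher and 12 lower. With all libraries DESeq2 called 4 higher and 15 lower, beside 1204 and 1546 of all 10287 genes. Of the 18 alternative fits, those with a library left out included, Atp5g3 was called in 17, Ndufs3 and Uqcr10 in 15, Cyc1 and Uqcrfs1 in 13, Cox8a and Ndufv3 in 12, Atp5c1 and Sdhd in 10, Atp5j2 in 9, Ndufa13 in 8 and Cox6a1 in 6. The remaining called genes did not pass the count filter of every fit. Of the 17 fits that tested them, Ndufa2 was called in 11, Ndufab1 in 9 and Atp5h in 6, and of 16 fits Atp5g1 was called in 10 and Atp5g2 in 5. The exons of 31 of the 87 genes overlap those of another gene, for 28 of them on the opposite strand, and such counts are uncertain.

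Scaling set the sign of several of these values. On library totals alone the median of all genes tested moved to 1.50 and that of the respiratory chain to 0.98, and then 26 were called higher and 0 lower (1 lower at an unadjusted p under 0.05). That is 34.7% of the 75 genes called higher, against 55.1% higher and 2.93% lower of all genes on the same scale. Sdhd, Ndufa13, Atp5j2, Atp5h and Cox6a1 had log2 fold changes between 0.02 and 0.29 on that scale, each below the median of all genes. Every statement of higher or lower below is on the TMM scale.

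**Figure D2:**
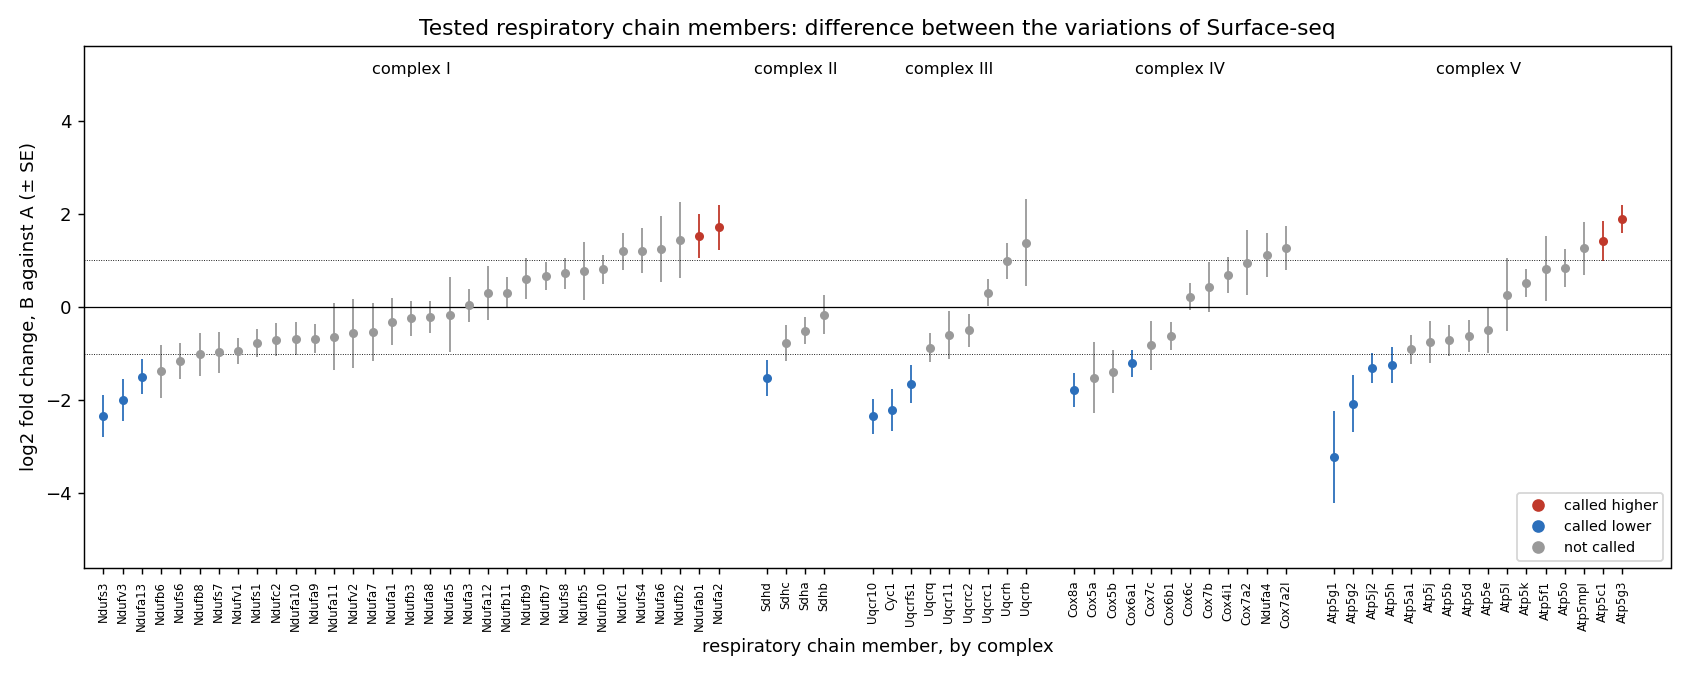
Log2 fold change of variation B against variation A from edgeR (y axis, bars ± SE) for 74 of the 75 tested genes (x axis), grouped by complex and ordered by value. Dotted lines mark a 2-fold change. The 4 genes called higher belong to complexes I and V, and genes called lower occur in all 5 complexes.

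Genes of a single protein moved in opposite directions in the c-ring, the rotor of the ATP synthase. Atp5g1, Atp5g2 and Atp5g3 encode the same mature subunit c behind different import peptides. The last 228 bases of their coding sequences are printed from GENCODE M21 transcripts (GRCm38), 5′ to 3′ on the mRNA strand, because they show how reads from these genes can be told apart. Capitals mark the 58 positions at which the 3 genes are not all the same.
Atp5g1: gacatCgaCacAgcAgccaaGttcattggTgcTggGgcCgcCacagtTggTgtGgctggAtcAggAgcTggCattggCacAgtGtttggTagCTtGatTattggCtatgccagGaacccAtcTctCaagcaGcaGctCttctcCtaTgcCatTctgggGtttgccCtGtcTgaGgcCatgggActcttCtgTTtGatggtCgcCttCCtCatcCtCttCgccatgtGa
Atp5g2: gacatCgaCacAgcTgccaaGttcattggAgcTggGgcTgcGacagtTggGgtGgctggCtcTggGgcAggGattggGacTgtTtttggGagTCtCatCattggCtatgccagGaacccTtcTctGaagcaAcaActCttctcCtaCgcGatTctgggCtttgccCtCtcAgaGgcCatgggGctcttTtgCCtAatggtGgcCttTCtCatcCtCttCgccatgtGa
Atp5g3: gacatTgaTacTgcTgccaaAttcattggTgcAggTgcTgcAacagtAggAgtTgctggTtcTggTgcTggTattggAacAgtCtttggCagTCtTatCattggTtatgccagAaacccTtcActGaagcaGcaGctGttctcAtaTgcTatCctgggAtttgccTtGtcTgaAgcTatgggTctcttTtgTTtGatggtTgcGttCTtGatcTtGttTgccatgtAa
The translated stretch of 75 codons differs at 0 residues between them. The bases of Atp5g1 and Atp5g2 are 85.1% identical, those of Atp5g1 and Atp5g3 79.8%, and those of Atp5g2 and Atp5g3 78.5%, and no pair shares a 30-base word. The GC content of the stretch is 54.4% in Atp5g1, 55.3% in Atp5g2 and 45.2% in Atp5g3.

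Atp5g3 rose and its paralogs fell. Atp5g3 (ENSMUSG00000018770.9, chr2:73908447-73911326, minus strand) had a normalized CPM of 72.9, 59.9 and 45.9 in the A libraries against 206.4 and 237.03 in the B libraries, and both B libraries lay above all A libraries (log2 fold change 1.88, SE 0.30, adjusted p = 0.00605). Atp5g1 (ENSMUSG00000006057.15, chr11:96068852-96075670, minus strand) had 2.48, 13.2 and 5.92 in the A libraries against 1.39 and 0.213 in the B libraries (log2 fold change -3.22, SE 0.98, adjusted p = 0.0449). Those values rest on 5, 34 and 4 counts in variation A and 57 and 9 in variation B, and both B libraries lay below all A libraries. The log2 fold change was -2.21 without A2, -5.08 without B1 and -2.43 without B2, and the call was lost each time. Atp5g2 (ENSMUSG00000062683.11, chr15:102662864-102672352, minus strand) had 3.47, 7.39 and 5.92 in the A libraries against 1.20 and 1.44 in the B libraries, again without overlap (log2 fold change -2.08, SE 0.61, adjusted p = 0.0406). It rests on 7, 19 and 4 counts in variation A and 49 and 61 in variation B, and its exons overlap those of the microRNA gene Mir688. All 30-base words of the coding sequences of Atp5g1 and Atp5g2 recur in transcripts of other genes (mostly the processed pseudogene Gm10039 for Atp5g1, and the processed pseudogenes Gm10175 and Gm10231 for Atp5g2), and those of Atp5g3 recur in no other gene, so the counts of the first pair are uncertain and no ratio between the paralogs is given. With a trend with GC content removed, the log2 fold change was 1.81 for Atp5g3, -3.58 for Atp5g1 and -0.73 for Atp5g2, the last no longer called (adjusted p = 0.359, edgeR).

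**Figure D3:**
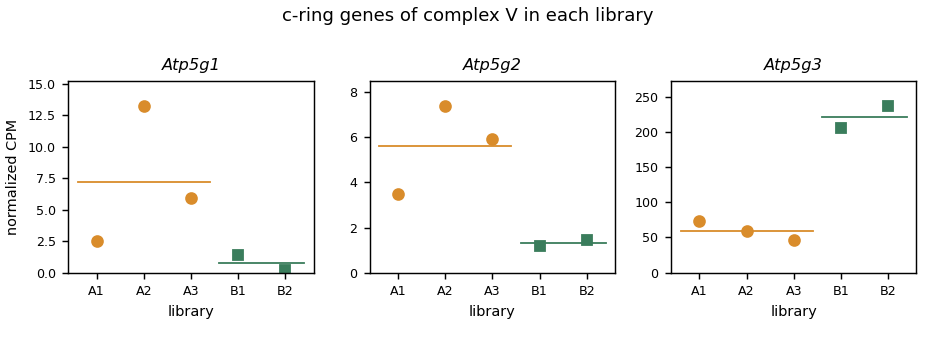
Normalized CPM (y axis, from 0, a scale of its own in each panel) of the 3 c-ring genes in each library (x axis). Circles are variation A, squares variation B, and lines the group means. Atp5g3 is higher in both B libraries, and Atp5g1 and Atp5g2 are lower.

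In the rest of complex V, 16 genes of which were tested, the catalytic head gave the most counts. Atp5b, the catalytic beta subunit, had 491.97, 671.7 and 521.4 in the A libraries against 317.1 and 366.8 in the B libraries (log2 fold change -0.72, SE 0.33, adjusted p = 0.144), with no overlap but no call. Atp5a1, the alpha subunit, had 476.1, 520.04 and 550.99 in the A libraries against 286.2 and 264.3 in the B libraries (log2 fold change -0.91, SE 0.31, adjusted p = 0.0667), also lower in both B libraries and not called. In normalized CPM per kilobase of exon, the highest mean level of complex V in variation A was that of Atp5a1, with 164.5 ± 12.004 (SD, n = 3), and in variation B that of Atp5g3, with 101.7 ± 9.93 (SD, n = 2). Atp5c1 (ENSMUSG00000025781.14, chr2:10056016-10080510, minus strand) encodes the gamma subunit, the central stalk that turns inside that head. It rose, from 57.5, 25.3 and 17.8 in the A libraries against 91.2 and 93.7 in the B libraries (log2 fold change 1.42, SE 0.44, adjusted p = 0.0474), with A1 nearest to the B libraries. Without A1 its log2 fold change was 2.12. The call was lost with upper quartile factors (log2 fold change 1.30, adjusted p = 0.0554, edgeR). Atp5j2 (ENSMUSG00000038690.15, chr5:145183698-145192062, minus strand), subunit f of the membrane part, had 40.2, 50.95 and 56.3 in the A libraries against 15.8 and 23.6 in the B libraries (log2 fold change -1.31, SE 0.33, adjusted p = 0.0254). Atp5h (ENSMUSG00000034566.10, chr11:115415689-115419962, minus strand), subunit d of the peripheral stalk, had 18.8, 12.4 and 10.4 in the A libraries against 5.71 and 6.32 in the B libraries (log2 fold change -1.25, SE 0.39, adjusted p = 0.0498). Both fell without overlap, but Atp5h lost its call without A1 (log2 fold change -0.85, adjusted p = 0.106), and 80.1% of its coding 30-base words occur in other genes, chiefly the pseudogene Gm10250.

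In complex I, which takes electrons from NADH, 2 of the 34 genes tested rose (5.88%) and 3 fell (8.82%). Of all genes, 11.0% rose and 12.4% fell. The median log2 fold change in complex I was -0.28. Ndufa2 (ENSMUSG00000014294.4, chromosome 18), an accessory subunit, had 37.2, 12.4 and 11.8 in the A libraries against 75.9 and 62.9 in the B libraries (log2 fold change 1.71, SE 0.47, adjusted p = 0.0342). Ndufab1 (ENSMUSG00000030869.11, chr7:122085403-122101886, minus strand), the mitochondrial acyl carrier protein, had 19.8, 7.001 and 5.92 in the A libraries against 29.02 and 37.1 in the B libraries (log2 fold change 1.52, SE 0.48, adjusted p = 0.0497). In both, the B libraries were above every A library and A1 was the highest of variation A. Without A1 the log2 fold change was 2.61 for Ndufa2 and 2.41 for Ndufab1. Ndufa2 shares exon sequence with Tmco6 on the other strand, and Ndufab1 overlaps Gm44986 there and has all its coding 30-base words in other genes. The counting ignored strand, so reads from either strand count alike. Per kilobase of exon, the highest mean normalized CPM of complex I belonged in variation A to Ndufc2, with 53.4 ± 20.4 (SD, n = 3), which led in only 1 of the 3 libraries, and in variation B to Ndufa2, with 121.3 ± 16.1 (SD, n = 2).

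The fallen genes of complex I included a core subunit. Ndufs3 (ENSMUSG00000005510.9, chr2:90894634-90904827, minus strand), a core subunit of the peripheral arm, had 12.4, 24.9 and 25.2 in the A libraries against 4.98 and 3.08 in the B libraries (log2 fold change -2.34, SE 0.45, adjusted p = 0.0107). Its exons overlap Kbtbd4 on the other strand, and 67.1% of its coding 30-base words recur in other genes. Ndufv3 (ENSMUSG00000024038.17, chr17:31520115-31531331, plus strand), a small subunit of the NADH-binding module, had 12.9, 28.8 and 34.1 in the A libraries against 6.47 and 5.75 in the B libraries (log2 fold change -2.001, SE 0.45, adjusted p = 0.0172). Ndufa13 (ENSMUSG00000036199.9, chr8:69894180-69902558, minus strand), also known as GRIM-19, had 22.3, 34.2 and 44.4 in the A libraries against 10.3 and 13.02 in the B libraries (log2 fold change -1.49, SE 0.37, adjusted p = 0.0248). In all of these both B libraries were below every A library, and for Ndufs3, Ndufv3 and Ndufa13 alike A1 was the lowest of variation A.

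Further core subunits were not called. Ndufv1, which holds the NADH-binding site, had 71.4, 82.8 and 96.3 in the A libraries against 41.2 and 45.4 in the B libraries (log2 fold change -0.94, SE 0.28, adjusted p = 0.0446), past the p threshold but under the 2-fold change. Ndufs1, an iron-sulfur subunit, had 111.6, 82.8 and 72.6 in the A libraries against 55.9 and 49.1 in the B libraries (log2 fold change -0.77, SE 0.30, adjusted p = 0.0946). Both B libraries were below all A libraries for Ndufv1 and Ndufs1. Ndufs7 and Ndufs8 carry iron-sulfur clusters on the way to the quinone. Ndufs7 had 17.9, 50.6 and 47.4 in the A libraries against 19.9 and 18.8 in the B libraries and Ndufs8 24.8, 15.2 and 16.3 in the A libraries against 33.2 and 29.4 in the B libraries, with log2 fold changes of -0.98 and 0.72. Without A1 both were called, Ndufs7 lower (-1.23, adjusted p = 0.000537, edgeR) and Ndufs8 higher (1.13, adjusted p = 0.00372). Ndufv2, an iron-sulfur subunit, had 47.1, 7.78 and 4.44 in the A libraries against 12.6 and 15.9 in the B libraries, so that A1 was far above both other A libraries. Its log2 fold change was -0.57 with all libraries and 1.18 without A1 (adjusted p = 0.0296, edgeR).

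Complex II, succinate dehydrogenase, has 4 subunits, all nuclear-encoded and all tested. Sdhd (ENSMUSG00000000171.5, chr9:50596357-50603812, minus strand), a membrane anchor, had 83.3, 161.4 and 177.7 in the A libraries against 44.05 and 54.01 in the B libraries (log2 fold change -1.51, SE 0.39, adjusted p = 0.0262), with both B libraries below all A libraries. Sdha, the flavoprotein that oxidizes succinate, had 235.6, 211.6 and 214.8 in the A libraries against 161.2 and 149.8 in the B libraries (log2 fold change -0.51, SE 0.28, adjusted p = 0.213), without overlap. Sdhb, the iron-sulfur subunit, had 76.9, 33.5 and 31.1 in the A libraries against 45.5 and 40.3 in the B libraries (log2 fold change -0.16, SE 0.41, adjusted p = 0.792). The B values of Sdhb lay between A1 and the other A libraries, and Sdhc, the second anchor, had a log2 fold change of -0.77 (SE 0.38). In normalized CPM per kilobase of exon, Sdhd was the highest of the 4 in every A library, with 67.7, 131.1 and 144.4 against 57.1, 51.3 and 52.1 for Sdha. In the B libraries Sdha was above it in B1 and below it in B2, at 35.8 and 43.9 for Sdhd and 39.1 and 36.3 for Sdha.

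In complex III, cytochrome bc1, 3 of the 9 genes fell (33.3%) and 0 rose, with a median log2 fold change of -0.60. Of all genes, 12.4% fell and 11.0% rose. At an unadjusted p under 0.05 edgeR had 1 higher, and DESeq2 also called 0 higher. Electron-carrying subunits were among those that fell. Cyc1 (ENSMUSG00000022551.8, chr15:76343523-76346260, plus strand), cytochrome c1, had 18.3, 49.4 and 41.5 in the A libraries against 7.98 and 7.55 in the B libraries (log2 fold change -2.22, SE 0.45, adjusted p = 0.0125). Uqcrfs1 (ENSMUSG00000038462.3, chr13:30540308-30545362, minus strand), the Rieske iron-sulfur protein, had 33.7, 32.3 and 56.3 in the A libraries against 16.2 and 9.16 in the B libraries (log2 fold change -1.65, SE 0.40, adjusted p = 0.0230). Uqcr10 (ENSMUSG00000059534.8, chr11:4701973-4704342, minus strand), a small accessory subunit, had 24.8, 35.01 and 48.9 in the A libraries against 7.17 and 6.67 in the B libraries (log2 fold change -2.35, SE 0.38, adjusted p = 0.00607). The groups did not overlap for any of them. Uqcrc1, a core scaffold protein, had 83.3, 102.7 and 79.98 in the A libraries against 92.5 and 127.2 in the B libraries (log2 fold change 0.30, SE 0.29, adjusted p = 0.463), with the B1 value inside the range of variation A. Uqcrq, the ubiquinone-binding protein, had 55.05, 58.3 and 87.4 in the A libraries against 35.3 and 36.8 in the B libraries (log2 fold change -0.87, SE 0.31, adjusted p = 0.0734), lower in both B libraries but not called. Per kilobase of exon, the member with the highest mean normalized CPM in variation A was Uqcr10, with 62.03 ± 20.7 (SD, n = 3), although Uqcr11 was above it in A2. In variation B it was Uqcrh, with 47.3 ± 5.13 (SD, n = 2), a gene named after its values were seen, and Uqcr10 had 12.3 and 11.4 there.

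In complex IV, cytochrome c oxidase, 2 of the 12 genes tested fell (16.7%) and 0 rose, beside 12.4% and 11.0% of all genes. The median log2 fold change in complex IV was -0.20. At an unadjusted p under 0.05 edgeR had 2 higher, and DESeq2 also called 0 higher. Cox8a (ENSMUSG00000035885.5, chr19:7215153-7217616, minus strand), the ubiquitous form of the smallest subunit, had 26.8, 50.95 and 35.5 in the A libraries against 10.5 and 11.5 in the B libraries (log2 fold change -1.79, SE 0.36, adjusted p = 0.0126). Cox6a1 (ENSMUSG00000041697.8, chr5:115345642-115348981, minus strand), the form of subunit VIa outside muscle, had 79.8, 107.4 and 90.4 in the A libraries against 40.2 and 39.8 in the B libraries (log2 fold change -1.21, SE 0.29, adjusted p = 0.0206). Both B libraries were below all A libraries for each. Cox4i1, the regulatory subunit IV, had 55.05, 126.8 and 71.1 in the A libraries against 126.7 and 146.8 in the B libraries (log2 fold change 0.69, SE 0.38, adjusted p = 0.207), with overlap between A2 and B1. Cox6b1 had 57.03, 82.8 and 88.9 in the A libraries against 45.1 and 53.5 in the B libraries (log2 fold change -0.62, SE 0.31, adjusted p = 0.166), without overlap and not called. The highest mean normalized CPM per kilobase of exon in complex IV was in variation A that of Cox6a1, with 131.8 ± 19.8 (SD, n = 3), and in variation B that of Cox4i1, with 88.2 ± 9.18 (SD, n = 2). The members named with values include most of the 15 most counted of the 43 that had at least 10 counts in every library. From the 16th, Uqcrc2, to the last, Ndufb8, mean normalized CPM ran from 45.2 down to 11.5.

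**Figure D4:**
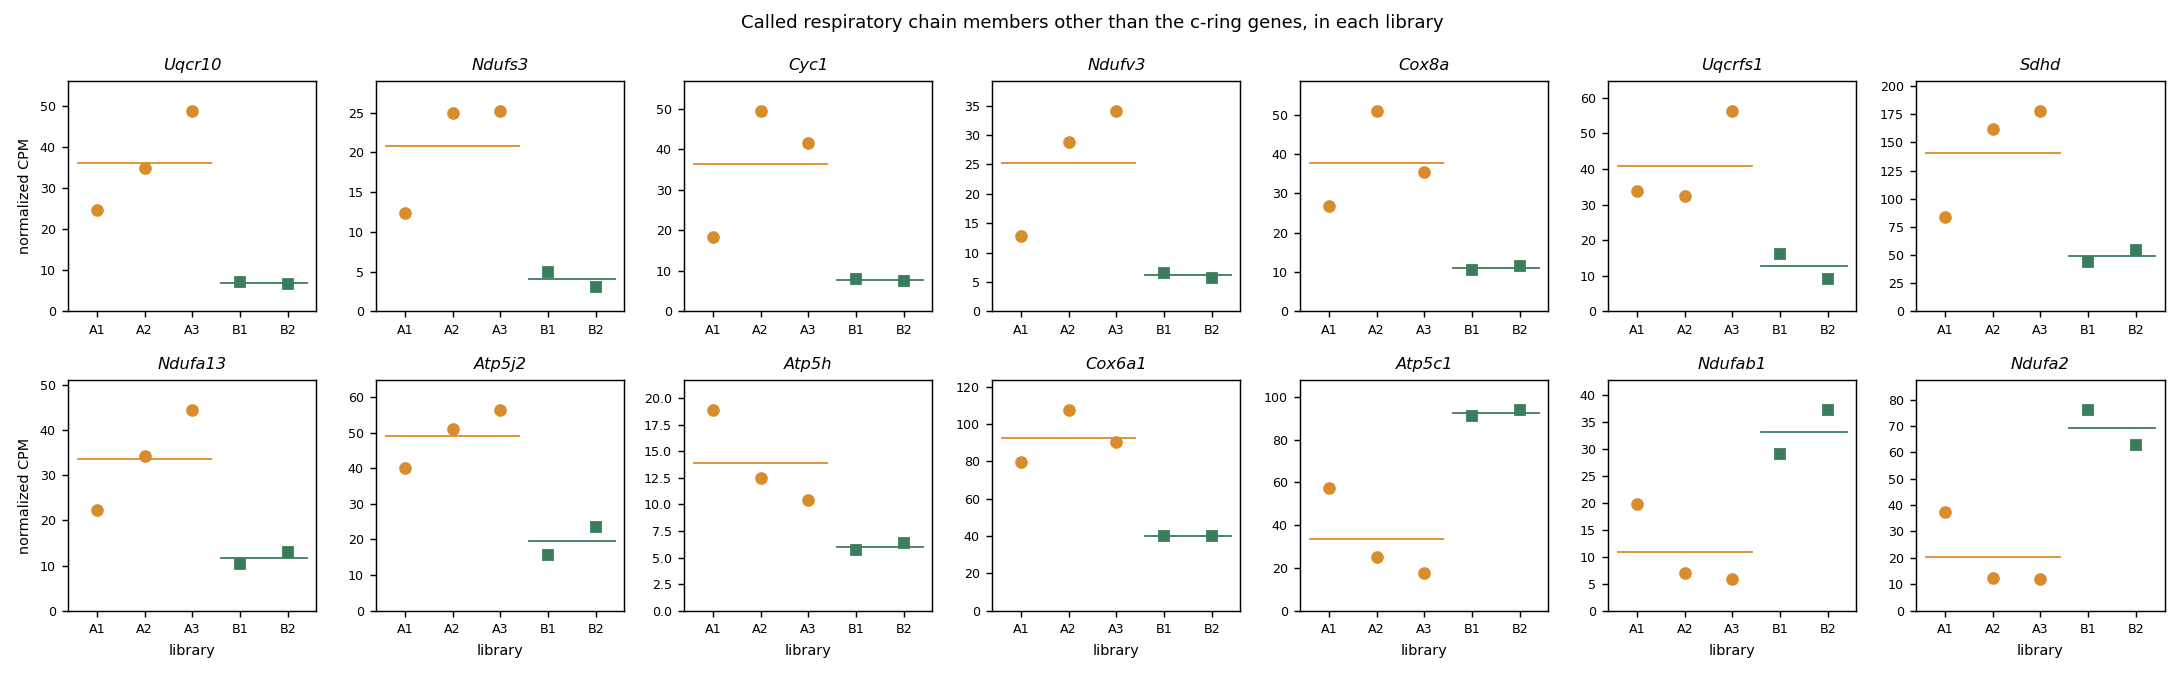
Normalized CPM (y axis, from 0, a scale of its own in each panel) in each library (x axis) for the called genes outside the c-ring, ordered from the lowest to the highest log2 fold change. Circles are variation A, squares variation B, and lines the group means. In every panel both B libraries lie on 1 side of all A libraries.

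GC content moved with these differences. GC content here is that of each gene's longest annotated transcript. Across the 75 genes the log2 fold change correlated with GC content at a Spearman's rho of -0.22, and across 9515 nuclear protein-coding genes at -0.52. The difference of A1 from the mean of A2 and A3 correlated with GC at -0.45 and -0.63 in the same sets. With each library's GC trend removed, an alternative chosen after seeing the data, 10 genes were called higher (13.3%) and 13 lower (17.3%), with a median of -0.16. Over all genes that fit called 11.5% higher and 10.0% lower, with a median of 0.04. All 4 higher calls and 8 of the 13 lower calls were kept. The 5 lower calls that were not kept, Cyc1, Cox8a, Atp5g2, Ndufa13 and Cox6a1, have 58.5% to 63.3% GC, while those kept have at most 53.8%. The correction shifts each gene by an amount set by its GC content, so this split is no result apart from the correction. The fold change of Cox6a1 was then -0.0070 on the log2 scale. Cyc1 (-0.95, adjusted p = 0.0216, edgeR) and Cox8a (-0.80, adjusted p = 0.0457) stayed past the p threshold and lost their calls to the 2-fold minimum alone. Cox4i1, at 58.0% GC, was called higher there (log2 fold change 1.66, adjusted p = 0.00357, edgeR). Among the calls kept, Atp5g3 went from 1.88 to 1.81 and Sdhd from -1.51 to -1.56. The cause of the calls lost was not tested.

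**Figure D5:**
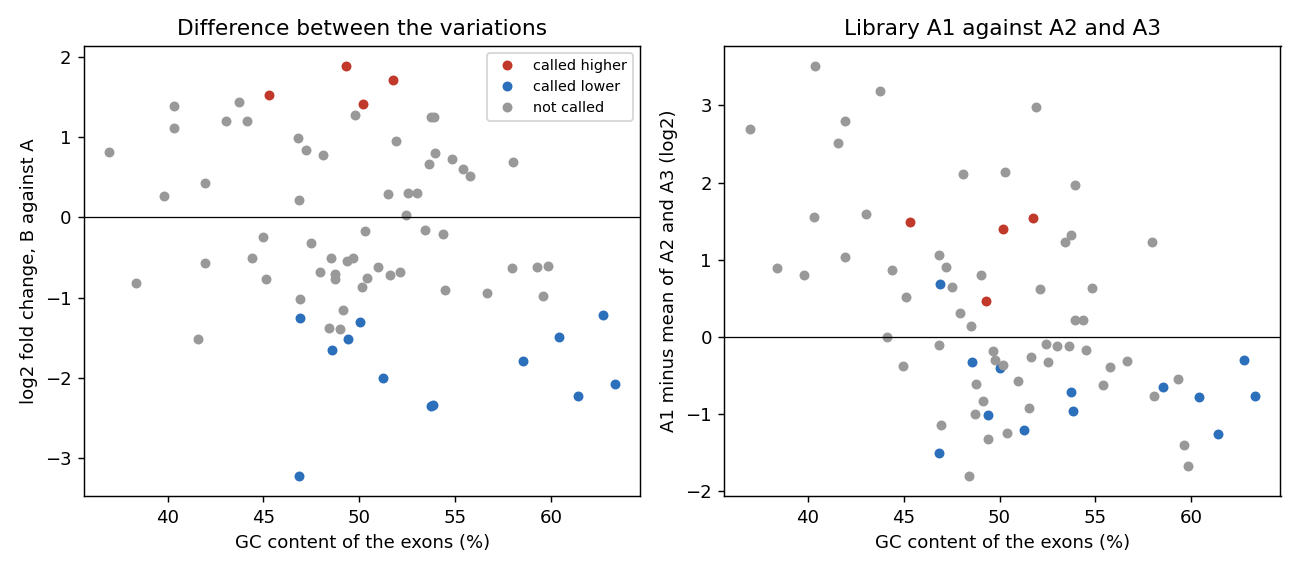
GC content of each gene's longest annotated transcript (x axis, %, labelled there as exons) for 74 of the 75 tested genes, coloured by call. It is set against the log2 fold change of variation B over A (left) and the log2 difference of library A1 from the mean of A2 and A3 (right). Over all 75 the Spearman's rho is -0.22 on the left and -0.45 on the right. The lower calls above 58% GC are those not kept once the GC trend was removed, a correction that itself shifts genes by GC content.

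The genes that build and serve the complexes were read from a list of 64 assembly factors and electron carriers, 57 of which were tested. Of these 1 rose (1.75%) and 3 fell (5.26%), beside 11.0% and 12.4% of all genes, and the median log2 fold change was -0.23. Without A1, 9 rose and 7 fell of 62 tested, beside 2526 and 1821 of all 12127 genes in that fit. On library totals alone 25 were higher and 1 lower, beside 55.1% and 2.93% of all genes. Atpif1, the inhibitor of the ATP synthase, had 4.96, 2.72 and 2.96 in the A libraries against 21.3 and 23.4 in the B libraries (log2 fold change 2.62, SE 0.40, adjusted p = 0.00487). Its A values rest on 10, 7 and 2 counts, the last below the floor of 3 counts, so the size of its fold change is uncertain. Cycs, cytochrome c, which carries electrons from complex III to complex IV, had 11.4, 10.9 and 11.8 in the A libraries against 1.05 and 1.96 in the B libraries (log2 fold change -2.90, SE 0.50, adjusted p = 0.00779). Lrpprc, which stabilizes mitochondrial mRNAs, had 95.2, 135.4 and 97.8 in the A libraries against 50.2 and 38.7 in the B libraries (log2 fold change -1.30, SE 0.31, adjusted p = 0.0213), and Cox18, an insertase for a complex IV core subunit, had 6.45, 9.72 and 5.92 in the A libraries against 1.07 and 2.65 in the B libraries (log2 fold change -2.03, SE 0.60, adjusted p = 0.0413). In all of these the groups did not overlap. The calls of Lrpprc and Cox18 were lost with any library but A1 left out (edgeR adjusted p from 0.0710 to 0.230 for Lrpprc and from 0.0984 to 0.213 for Cox18), and that of Cox18 also with the GC trend removed (adjusted p = 0.0625). Cycs was not called without B1 (adjusted p = 0.0680), nor Atpif1 without B2 (adjusted p = 0.0627). Lrpprc had a log2 fold change of 0.20 on library totals alone. Of the 13 subunits encoded by the mitochondrial genome 6 were listed at 0. Those zeros cannot be told apart from reads dropped for several alignments or for lying over several genes. The other 7 were tested. Among them mt-Nd1 of complex I had 65.96, 29.2 and 35.5 in the A libraries against 95.03 and 127.6 in the B libraries (log2 fold change 1.34, SE 0.38, adjusted p = 0.0373), and mt-Cytb of complex III had 83.8, 32.7 and 53.3 in the A libraries against 136.4 and 130.1 in the B libraries (log2 fold change 1.23, SE 0.39, adjusted p = 0.0498). Both rose, and the median over the 7 was 0.58. Without A1 the log2 fold changes were 1.95 and 1.86. With any other library left out neither was called, and with the GC trend removed they were 0.39 and 0.37, not called. The cytosolic ribosomal protein mRNAs, 78 tested, had a median of -0.47 with 0 higher (8 at an unadjusted p under 0.05, and 3 called by DESeq2) and 20 lower (25.6%, beside 12.4% of all genes). Without A1, 14 were higher and 22 lower of 79, beside 2526 and 1821 of all 12127 genes in that fit. Lower calls numbered 11 without A2 and 14 without A3, where 3.64% and 3.86% of all genes were called lower. With a B library left out, which leaves 1 library in variation B, most of the lower calls were lost. On library totals alone 28 were higher and 1 lower, beside 55.1% and 2.93% of all genes. The mitochondrial ribosomal protein mRNAs, 74 tested, had a median of -0.29 with 3 higher (4.05%) and 5 lower (6.76%). Without A1, 9 were higher and 12 lower, beside 2526 and 1821 of all 12127 genes in that fit. On library totals alone the calls were 32 and 1, beside 55.1% and 2.93% of all genes. DESeq2 called 3 and 11, beside 1204 and 1546 of all 10287 genes. Leaving out another library gave at most 1 higher and 3 lower.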

How the data were processed

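The genes and lists were chosen with earlier results of these data known. For trimming the authors ran Trimmomatic 0.36, and they used STAR 2.7.3a for alignment to GRCm38 and counted reads with featureCounts 1.6.4 on GENCODE M24 exons, and the deposited values are whole-number counts per gene and library, without normalization. The command set no strand option, and by default reads with several alignments or over several genes were dropped. Gene identifiers were looked up in GENCODE M21, which gave 55144 of 55385 a symbol and type. The 2 B libraries were set against the 3 A libraries in edgeR 4.0.16 (R 4.3.3) by its quasi-likelihood test after filterByExpr and TMM. P-values were adjusted by Benjamini-Hochberg over 10287 genes, and a call needs a value below 0.05 with more than a 2-fold change. The SE is the log2 fold change divided by the square root of F. edgeR stood in for DESeq2, which the paper names and which was run as an alternative (1.42.0). Named were all called genes, the most counted, the 2 highest per kilobase in each complex, tissue-restricted isoforms, c-ring and complex I core genes. A gene is not reported here. Coding sequences were searched for 30-base words in other genes' transcripts on either strand. Library totals ran from 1187117 to 22980172. Alternatives covered normalization, filters, gene length, GC content (added after seeing the data), equal library totals and each library left out.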

Additional observations from a re-analysis of the deposited data

How the results depend on the processing

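Of the genes tested, 4 were higher and 13 lower. Higher calls numbered 26 on library totals alone (0 lower), 2 with upper quartile factors (9.29% of all genes), 2 with at least 10 counts in every library (12.9%), 1 with counts drawn down to the smallest total (9.50%), and 10 with the GC trend removed, also with the replicate block (11.5%, with the block 10.7%). Lower calls numbered 7 with no filter on low counts (8.43% of those tested, against 3.50% of all genes). With the replicate block 2 were higher and 7 lower (7.40% and 7.90% of all genes), and with the length trend removed as well 2 and 4 (4.84% and 6.06%). Once group means were subtracted, log2 levels of 10287 genes correlated at -0.104 (A1 with B1) and -0.034 (A2 with B2). With 2 B libraries the deviations of B1 and B2 are opposites, so these values cannot tell whether the numbers pair the libraries. Leaving out 1 library gave 0 to 17 higher and 0 to 17 lower. DESeq2 gave 4 and 15. The median of -0.51 moved to 0.98 on library totals alone, -0.29 with no filter, -0.24 with the length trend removed (-0.25 with the block), -0.16 with the GC trend removed (-0.18 with the block), and -0.52 to -0.17 with 1 library left out. On library totals alone the log2 fold change turned positive for Atp5a1 (0.58), Atp5b (0.78), Atp5h (0.17), Atp5j2 (0.19), Cox6a1 (0.29), Ndufa13 (0.024), Ndufs1 (0.65), Ndufs7 (0.60), Ndufv1 (0.55), Ndufv2 (0.70), Sdha (0.95), Sdhb (1.19), Sdhc (0.79), Sdhd (0.039), Uqcrq (0.62) and Cox6b1 (0.90) among the genes named, where the median of all genes is 1.50. Ndufs7 was at 0.18 with the GC trend removed (0.24 with the block) and Ndufv2 at -0.98 to 1.18 with 1 library left out. The ratio of the mean share in B to that in A, 0.957 over nuclear protein-coding counts, was 2.24 over all counts and 1.42 without ribosomal RNA and mitochondrial genes. The causes were not tested. Depth limits A3 most, where 18 genes had no count.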

Other observations

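Several respiratory chain genes with AT-rich transcripts had lower values in A2 and A3 than in A1 and the B libraries. Uqcrb, a small complex III subunit, had a normalized CPM of 12.4, 0.389 and 0 in the A libraries against 11.2 and 14.3 in the B libraries. Ndufb2 of complex I had 12.4, 1.17 and 0 in the A libraries against 13.8 and 14.4 in the B libraries, and Atp5f1, the peripheral stalk subunit b of complex V, had 56.5, 10.5 and 5.92 in the A libraries against 44.2 and 46.96 in the B libraries. Cox5a, which encodes subunit Va of complex IV, went another way, with 63.5, 7.001 and 14.8 in the A libraries against 9.25 and 11.2 in the B libraries, so that A1 alone was high. The longest transcripts of these 4 genes are 40.4%, 43.7%, 37.0% and 41.6% GC, and the words of 30 bases in their coding sequences occur in other genes for 90.6%, 67.8%, 62.1% and 41.0%. The exons of all 4 overlap those of another gene. None was called in the main fit with all libraries. Without A1 Uqcrb, Ndufb2 and Atp5f1 were called higher (adjusted p = 0.000151, 0.000255 and 3.95e-05, edgeR). No fold change is given for Uqcrb and Ndufb2, which had at most 3 counts in A2 and A3, and that of Atp5f1 was 2.41 on the log2 scale. Cox5a went from -1.52 to 0.23 (adjusted p = 0.691). With the GC trend removed, the log2 fold change of Atp5f1 went from 0.82 to -0.00088 and that of Cox5a from -1.52 to -2.09. Cox5a was then called lower (adjusted p = 0.0229, edgeR), and Uqcrb, Ndufb2 and Atp5f1 were not called. The 4 genes were chosen after their values were seen, and not every AT-rich gene shared the pattern. Cox7c, at 38.4% GC, had 12.9, 13.2 and 2.96 in the A libraries against 4.73 and 7.34 in the B libraries. The part of base composition in these values was not tested.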
